A study of Danio rerio with 12 samples.

Results

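The comparison here sets cells labelled as microglia of DMut against those of siblings, 3 tubes against 3 of the 12 tubes of the series. The remaining tubes held cells labelled as microglia of mafba and of mafbb single mutants. The labels do not write DMut out in full, and it is read as mutant in both mafba and mafbb. The mutant alleles, and the genotypes among the siblings, are not given. All embryos were 3 days post fertilisation (dpf) and carried the reporter Tg(mpeg1:DsRedx), in which the mpeg1 promoter, active in macrophages and microglia alike, drives a red fluorescent protein. Brains of about 10 embryos were dissociated, 3 red cells were picked by hand into each tube, and poly(A) RNA was amplified by Smart-seq2, a full-length cDNA method for very small inputs. A tube is thus a pool of 3 cells. Nothing says that replicate tubes came from separate dissociations, so the p-values below measure the spread between tubes. The genes described are those that passed a filter on low counts, 9519 of the 35117 gene IDs in the deposited count table. Levels are in CPM, computed on library sizes scaled by TMM, with the values of a group in the order of replicates 1 to 3. A gene is called where the edgeR quasi-likelihood test gave a Benjamini-Hochberg adjusted p under 0.05 over all genes tested. The calls were repeated under 14 alternatives, 8 other settings of the processing and 6 fits with 1 tube left out. Symbols in capitals are those the gene table gives to the zebrafish gene with the ID shown.

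Microglia are the resident macrophages of the brain. In zebrafish larvae they derive from macrophages that enter the brain and take up dying neurons, and they carry transcripts for lipid carriers such as apoeb, the chemokine ccl34b.1, amino acid transporters and many lysosomal proteins.

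Total counts ran from 10014888 to 11580574 in DMut and from 10726836 to 13085239 in siblings, and spike-in RNA took 0.122% to 0.322% and 0.194% to 0.342% of them. DMut tubes had 7993, 7808 and 9297 genes with a count, and sibling tubes 7077, 7541 and 7665. Across genes, the Spearman correlation of log2(CPM + 1) between tubes was 0.575 to 0.629 within DMut, 0.581 to 0.616 within siblings and 0.456 to 0.535 between the groups, so single genes varied much between tubes of 1 genotype. The reporter's own gene, MPEG1 (ENSDARG00000055290), a pore-forming protein of macrophages, had 2269, 1922 and 2120.1 CPM in DMut and 1722, 1902 and 2219 CPM in siblings, levels that overlapped. The 41 gene IDs of the macrophage and pan-leukocyte list took 2.69%, 2.06% and 2.59% of gene counts in DMut and 2.15%, 1.90% and 2.61% in siblings, which overlapped as well. The microglia list took 0.608%, 0.671% and 0.952% in DMut, against 4.89%, 6.78% and 5.84% in siblings. The macrophage markers did not all lie alike. A further MPEG1 ID (ENSDARG00000043093) had 0, 17 and 0 counts in DMut and 271, 203 and 558 counts in siblings. The most abundant MFAP4 ID, given below, was also lower in every DMut tube than in any sibling tube. The gene marco had 0 counts in the DMut tubes and 1, 1116 and 5935 in siblings, so sibling replicate 1 was near 0 as well. The microglia markers apoeb, apoc1 and ccl34b.1, which go with the label, were at or near 0 in DMut.

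Markers of other cells were low but not even between the groups. The 15 IDs of the neutrophil list took 0.154%, 0.141% and 0.105% of gene counts in DMut and 0.0673%, 0.0337% and 0.0465% in siblings. Of its defining markers, lyz had 16, 0 and 0 counts in DMut, npsn 328, 0 and 67 and mmp13a 0, 0 and 94, all 3 had 0 in siblings, and MMP9 had none in any of the 6 tubes. EPX, read as the neutrophil marker mpx and not on this list, had 5198, 1803 and 1725 counts in DMut and 0 in siblings. The 23 epidermal and metaphocyte IDs took 0.0588%, 0.0516% and 0.173% in DMut and 0.00130%, 0.0120% and 0.00650% in siblings. Their marker cdh1, the E-cadherin gene, had 437, 297 and 249 counts in DMut and 12, 0 and 3 counts in siblings. Counts of epcam were 63, 0 and 0 in DMut, of cd9b 327, 149 and 194, of krt4 2, 0 and 192 and of cyt1 0, 0 and 22. These genes had 0 counts in siblings, and cldn3c had no count in either group. The radial glia list took 0.0369%, 0.0622% and 0.0311% in DMut and 0.634%, 0.372% and 0.948% in siblings, with GFAP and both SLC1A2 IDs at 0 in all 6 tubes. The FABP7 ID ENSDARG00000034650 had 0, 0 and 97 counts in DMut and 363, 0 and 0 in siblings. The ID ENSDARG00000099776 of GLUL alone took 0%, 0.00499% and 0% in DMut and 0.621%, 0.354% and 0.932% in siblings, and the other 18 IDs took 0.0369%, 0.0572% and 0.0311% in DMut and 0.0132%, 0.0180% and 0.0163% in siblings. The endothelial list took 0.00149%, 0.000471% and 0.00143% in DMut and 0.0123%, 0.0264% and 0.0181% in siblings, with kdrl and cdh5 at 0 in all 6 tubes. In siblings pecam1a had 0, 0 and 753 counts and FLI1 had 0, 122 and 348, while both had 0 in DMut. Neuronal markers stayed at or under 0.00331% and erythroid markers at or under 0.00107% in every tube, with both SNAP25 IDs, hbae1.1 and alas2 at 0. The neuronal marker ELAVL3 had 0, 0 and 67 counts in DMut and 0 in siblings. The part of these cells in the results below was not tested.

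The large Maf transcription factor gene MAFA (ENSDARG00000044155), named here after its values were seen, had 0, 0 and 0 CPM in DMut and 118, 172 and 218 CPM in siblings. Its counts were present in every sibling tube and in no DMut tube, but the test did not call it (adjusted p = 0.393 with all 12 tubes in the fit, and 0.000432 with the 6 tubes alone). MAFA was called under 5 of the 14 alternatives.

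No member of the large Maf and myeloid regulator list was called among 35 tested, and their median log2 fold change was 0.76, against 0.07 over all genes tested. CEBPA (ENSDARG00000036074), a factor of early myeloid differentiation, had 443, 1240.2 and 1841 CPM in DMut and 365, 255 and 407 CPM in siblings (log2 fold change 1.78 ± 0.70 SE, adjusted p = 0.393). SPI1 (ENSDARG00000000767), the myeloid factor PU.1, had 603, 1085 and 787 CPM in DMut and 33.9, 441 and 447 CPM in siblings (adjusted p = 0.654). ID2 (ENSDARG00000055283), an inhibitor of basic helix-loop-helix factors, had 214, 900.3 and 766 CPM in DMut and 0.0677, 18.6 and 140.1 CPM in siblings (adjusted p = 0.5). In these genes every DMut tube lay above every sibling tube, though sibling replicate 1 was far below the other sibling tubes for SPI1 and ID2. BHLHE41 (ENSDARG00000041691), a basic helix-loop-helix repressor, had 27.4, 678 and 162 CPM in DMut and 0, 0 and 0 CPM in siblings (adjusted p = 0.191), present in each DMut tube at widely different levels. CEBPB (ENSDARG00000042725), a factor of inflammatory and stress responses, lay the other way, with 2513, 1229.9 and 3524 CPM in DMut and 4133, 4050.1 and 5009 CPM in siblings (adjusted p = 0.393). BHLHE41 was called under 7 of the 14 alternatives; CEBPB under 3; CEBPA under 2; SPI1 under 1.

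Of the 9519 genes tested, 24 (0.252%) rose and 44 (0.462%) fell in DMut, 0.714% in all. Counts of called list members are to be read against these shares. At an unadjusted p under 0.05 there were 726 higher and 461 lower genes. In all 68 called genes the tubes of the groups did not overlap. Over all genes tested every DMut tube lay above every sibling tube in 939 (9.86%) and below in 698 (7.33%). The tested genes as a whole were centred near 0, with a median log2 fold change of 0.07. Scaling to the spike-ins moved that median to 0.47 and gave 22 higher and 25 lower genes. The list medians below are thus to be read against 0.07, and those with spike-in scaling against 0.47. List medians that change sign with that scaling are given under both. Each of those lists lay below the median of all genes tested under either scaling. Among the 44 lower genes 16 had 0 counts in the 3 DMut tubes, and among the 24 higher genes 5 had 0 counts in siblings. Against a group without a count a fold is given as "at least", computed from a floor of 3 counts over the group (0.0985 CPM in DMut, 0.0801 CPM in siblings). Such bounds cover counting error only. In pools of 3 cells, fewer cells with a transcript and less of it per cell cannot be told apart. When each of the 6 tubes was left out in turn, 22 of the 44 lower and 3 of the 24 higher genes stayed called. Under all 14 alternatives 7 lower genes (GADD45B, GPD1, ME3, MTSS2, PCBD1, acvrl1 and stab1) and 0 higher genes stayed called.

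**Figure D1:**
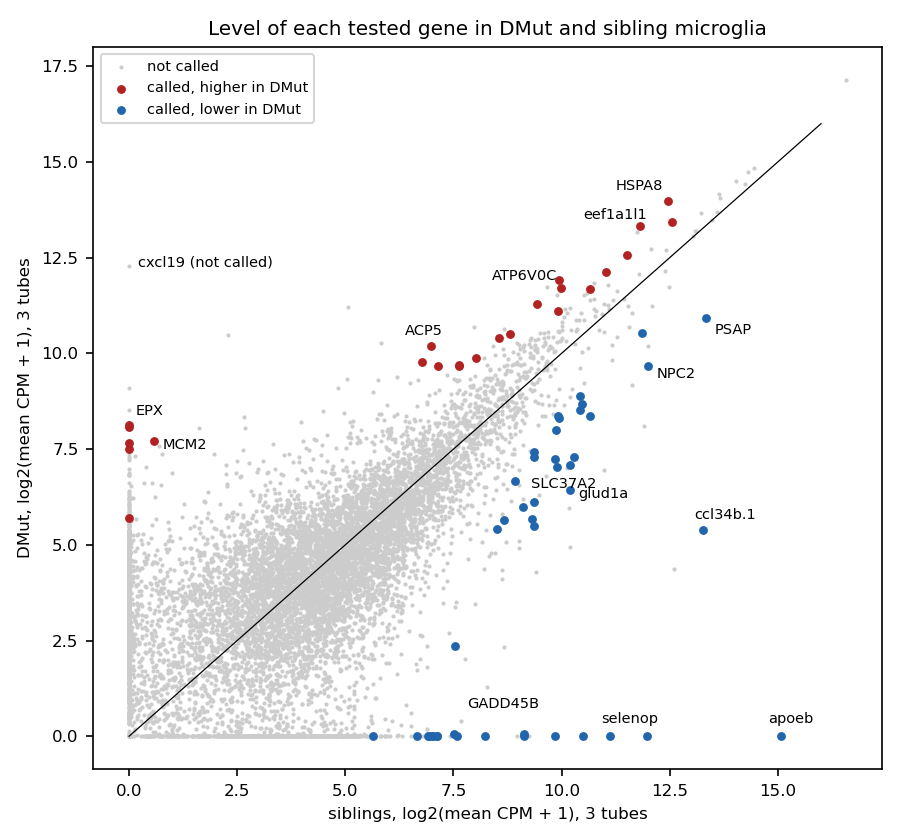
Mean level of each of the 9519 tested genes in 3 DMut tubes (vertical axis, log2 of mean CPM + 1) and 3 sibling tubes (horizontal axis, same scale), with the line of equal levels. Red points are the 24 genes called higher and blue points the 44 called lower in DMut; apoeb and selenop lie on the base line, at 0 CPM in DMut, and EPX on the left edge, at 0 CPM in siblings.

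The lipid carriers that mark zebrafish microglia had no count in DMut. apoeb (ENSDARG00000040295), which encodes apolipoprotein E, had 0, 0 and 0 CPM in DMut and 23479, 45757 and 34400 CPM in siblings and was at least 350630-fold lower (adjusted p = 0.00753). apoc1 (ENSDARG00000092170), a small apolipoprotein, had 0, 0 and 0 CPM in DMut and 2122, 4635 and 5276 CPM in siblings and was at least 40711-fold lower (adjusted p = 0.0159). No DMut tube held a single count of either gene, while every sibling tube held at least 2122 CPM. selenop (ENSDARG00000093549), a secreted carrier of selenium that is not on the microglia list, had 0, 0 and 0 CPM in DMut and 2304, 2014 and 2356 CPM in siblings and was at least 22579-fold lower (adjusted p = 0.00753); its sibling tubes lay close together. ccl34b.1 (ENSDARG00000093608), a chemokine gene of microglia, kept a trace in DMut, with 31.6, 24.4 and 65.6 CPM in DMut and 6432, 13734 and 9668 CPM in siblings (log2 fold change -7.94 ± 0.69 SE, adjusted p = 0.00103). lgals3bp.1 (ENSDARG00000040528), a secreted galectin-binding protein, had 0, 0 and 0 CPM in DMut and 2583, 1575 and 183 CPM in siblings and was at least 14686-fold lower (adjusted p = 0.0215), with sibling replicate 3 well below the other sibling tubes. Leaving out 1 tube ended the calls of apoc1 (sibling replicate 2, adjusted p = 0.0568) and lgals3bp.1 (DMut replicates 1, 2 and 3 and sibling replicates 1 and 2, adjusted p = 0.0519 to 0.0647). In other settings, spike-in scaling ended the call of apoc1; fitting the 6 tubes alone ended that of lgals3bp.1; limma voom ended those of all 5. Without sibling replicate 1, the bound of lgals3bp.1 was at least 8919.7-fold.

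The microglia list as a whole was less far apart than these genes. Of its 22 tested members 5 fell (apoeb, apoc1, ccl34b.1, lgals3bp.1 and SLC7A7, given below) and 0 rose, with a median log2 fold change of -1.12. The 3 genes apoeb, apoc1 and ccl34b.1 together took 0.00346%, 0.00207% and 0.00549% of gene counts in DMut, against 3.67%, 5.89% and 4.86% in siblings. The other 24 IDs took 0.604%, 0.669% and 0.946% in DMut and 1.21%, 0.887% and 0.975% in siblings, which overlapped. Of these, lgals9l1 (ENSDARG00000025903) had 1285, 2268 and 5364 CPM in DMut and 623, 822 and 1407 CPM in siblings (adjusted p = 0.393). This abundant member leaned higher in DMut, so the overlap of the summed share does not show the other members to be alike. In 10 of the 22 tested members every DMut tube lay below every sibling tube, and in 1 every DMut tube lay above. Among the members not called, havcr1 (ENSDARG00000040178), a receptor for dying cells, had 419.6, 811 and 575 CPM in DMut and 1949, 1179 and 1272 CPM in siblings (log2 fold change -1.29 ± 0.34 SE, adjusted p = 0.0575). Every DMut tube was below every sibling tube. slco2b1 (ENSDARG00000054609), an organic anion transporter, had 0, 0 and 4.29 CPM in DMut and 258, 198 and 465 CPM in siblings (adjusted p = 0.0856). The purinergic receptor gene P2RY12 (ENSDARG00000069945) had 0, 0 and 0 CPM in DMut and 0, 29.4 and 50.8 CPM in siblings (adjusted p = 0.317). Sibling replicate 1 also lacked P2RY12. csf1ra (ENSDARG00000102986), the receptor for the growth factors that sustain macrophages, had 199, 482 and 204 CPM in DMut and 181, 218 and 116 CPM in siblings (adjusted p = 1), overlapping values with the higher median in DMut. The last 3 genes were chosen after their values were seen. The scavenger receptor gene marco (ENSDARG00000059294) had 0, 0 and 0 CPM in DMut and 0.0677, 114 and 461 CPM in siblings (adjusted p = 0.393). stab1 (ENSDARG00000076484), a clearance receptor, had 0, 0 and 0 CPM in DMut and 41.8, 200.1 and 56.9 CPM in siblings and was called (at least 1011-fold lower, adjusted p = 0.000152). The MFAP4 genes, a family of near-identical copies whose counts may be split between them, had 1268, 3 and 2137 counts in DMut and 9700, 3673 and 17501 in siblings at the most abundant ID (ENSDARG00000090783). Without sibling replicate 2, the bound of stab1 was at least 501-fold. slco2b1 was called under 9 of the 14 alternatives; havcr1 and marco under 3; P2RY12 under 1.

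Cholesterol, apolipoprotein and lipid storage genes included further calls. Of 40 tested members 4 fell and 0 rose, with a median log2 fold change of -0.74; besides apoeb and apoc1 they were NPC2 and GPD1. NPC2 (ENSDARG00000090912), which hands cholesterol out of the lysosome, had 816, 1040.4 and 583 CPM in DMut and 4713, 3381 and 4184 CPM in siblings and fell 5.03-fold (log2 fold change -2.33 ± 0.37 SE, adjusted p = 0.00222). GPD1 (ENSDARG00000043701), which makes glycerol 3-phosphate for lipid synthesis, had 0, 0.118 and 0 CPM in DMut and 428, 254 and 1011 CPM in siblings. A single count in DMut replicate 2 set it apart from 0, and the pooled count ratio was 17741-fold (95% counting interval 3184 to 700760) lower in DMut (adjusted p = 8e-07). PLIN2 (ENSDARG00000042332), the coat protein of lipid droplets, did not pass, with 32.6, 19.4 and 45.5 CPM in DMut and 273, 299.6 and 284 CPM in siblings (log2 fold change -3.13 ± 0.90 SE, adjusted p = 0.11). OSBP2 (ENSDARG00000022772), an oxysterol-binding protein that is not on the list, had 79.9, 47.5 and 175 CPM in DMut and 552, 413 and 497 CPM in siblings and fell 4.83-fold (log2 fold change -2.27 ± 0.52 SE, adjusted p = 0.016). The call of OSBP2 (DMut replicates 1 and 2 and sibling replicate 1, adjusted p = 0.0635 to 0.154) did not hold with 1 tube left out. Of the other alternatives, spike-in scaling and limma voom each ended the calls of NPC2 and OSBP2; robust=FALSE and fitting the 6 tubes alone each ended that of OSBP2. Without sibling replicate 3, the pooled count ratio of GPD1 was 10910-fold. Without DMut replicate 3, the log2 fold change of OSBP2 was -2.94. PLIN2 was called under 2 of the 14 alternatives.

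The list of amino acid transport and glutamate metabolism held more called genes than any other list here, but not the largest share. Lower genes made up 18.18% of its tested members, 22.73% of those of the microglia list and 0.462% of all genes tested. Of the 33 tested members of the amino acid list 6 fell and 0 rose, with a median log2 fold change of -0.86. slc3a2a (ENSDARG00000036427), the heavy chain that carries light-chain amino acid transporters to the cell surface, had 119, 179.9 and 167 CPM in DMut and 1272, 1322 and 1169.5 CPM in siblings and fell 8.08-fold (log2 fold change -3.01 ± 0.42 SE, adjusted p = 9.11e-06). The light chains named SLC7A7 and SLC7A8 fell with it. SLC7A7 (ENSDARG00000055226), an exchanger of cationic amino acids required for zebrafish microglia to colonise the brain, had 236, 244 and 497 CPM in DMut and 1297, 1899 and 1646 CPM in siblings (log2 fold change -2.31 ± 0.39 SE, adjusted p = 0.000392). SLC7A8 (ENSDARG00000075831), an exchanger of neutral amino acids, had 13.8, 109 and 10.4 CPM in DMut and 580.5, 734 and 664 CPM in siblings, with DMut replicate 2 above the other DMut tubes (log2 fold change -3.90 ± 0.82 SE, adjusted p = 0.0336). SLC43A2 (ENSDARG00000061120), a further carrier of neutral amino acids, had 43.0, 105 and 40.7 CPM in DMut and 461, 737 and 454 CPM in siblings (log2 fold change -3.13 ± 0.70 SE, adjusted p = 0.0138). For each of these genes every DMut tube was below every sibling tube. Both glutamate dehydrogenase copies, which turn glutamate into a fuel of the citric acid cycle, fell. glud1a (ENSDARG00000008816) had 46.3, 103 and 105 CPM in DMut and 1206, 847 and 1465 CPM in siblings and fell 13.9-fold (log2 fold change -3.79 ± 0.46 SE, adjusted p = 4.47e-07). glud1b (ENSDARG00000101074) had 162, 119 and 170.0 CPM in DMut and 1213, 530.3 and 1009 CPM in siblings and fell 6.10-fold (log2 fold change -2.61 ± 0.44 SE, adjusted p = 0.000229). With 1 tube left out, the test no longer called SLC7A8 (sibling replicates 1 and 2, adjusted p = 0.0642 to 0.0795) and SLC43A2 (DMut replicates 1 and 3 and sibling replicate 2, adjusted p = 0.061 to 0.148). Other processing mattered too, as spike-in scaling ended the calls of SLC7A7, SLC43A2 and glud1b; robust=FALSE ended those of SLC7A8 and SLC43A2; fitting the 6 tubes alone ended that of SLC7A8; limma voom ended those of all 6. DESeq2 gave no adjusted p for SLC7A8, so it was not called there. Without DMut replicate 2, the log2 fold change of SLC7A8 was -5.78 and the log2 fold change of SLC43A2 was -3.74.

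Some members of the amino acid list that did not pass had wide gaps. The abundant ID of glutamine synthetase, GLUL (ENSDARG00000099776), an enzyme also listed for radial glia, had 0, 58.7 and 0 CPM in DMut and 5412, 3849.9 and 9451 CPM in siblings, a log2 fold change of -8.32 ± 2.67 SE with adjusted p = 0.393. In DMut only replicate 2 held counts. The other ID, GLUL (ENSDARG00000100003), had 137, 134 and 96.1 CPM in DMut and 0, 3.87 and 48.6 CPM in siblings (adjusted p = 1), the opposite order. SLC38A7 (ENSDARG00000012002), a lysosomal exporter of glutamine, had 42.9, 157 and 9.77 CPM in DMut and 633, 389.9 and 348 CPM in siblings (adjusted p = 0.697). SLC16A10 (ENSDARG00000020984), a carrier of aromatic amino acids, had 94.5, 22.3 and 83.6 CPM in DMut and 328, 367 and 192 CPM in siblings (adjusted p = 0.393). In both, every DMut tube lay below every sibling tube. CNDP2 (ENSDARG00000003931), a cytosolic dipeptidase outside the list, fell, with 359, 513 and 549.5 CPM in DMut and 1378, 1171 and 1555 CPM in siblings (log2 fold change -1.53 ± 0.37 SE, adjusted p = 0.028). A left-out tube ended the call of CNDP2 (DMut replicates 1 and 2 and sibling replicates 1, 2 and 3, adjusted p = 0.0579 to 0.21). Among the other alternatives, spike-in scaling, robust=FALSE and limma voom each ended the call of CNDP2. GLUL (ENSDARG00000099776) was called under 2 of the 14 alternatives; SLC16A10 under 1.

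**Figure D2:**
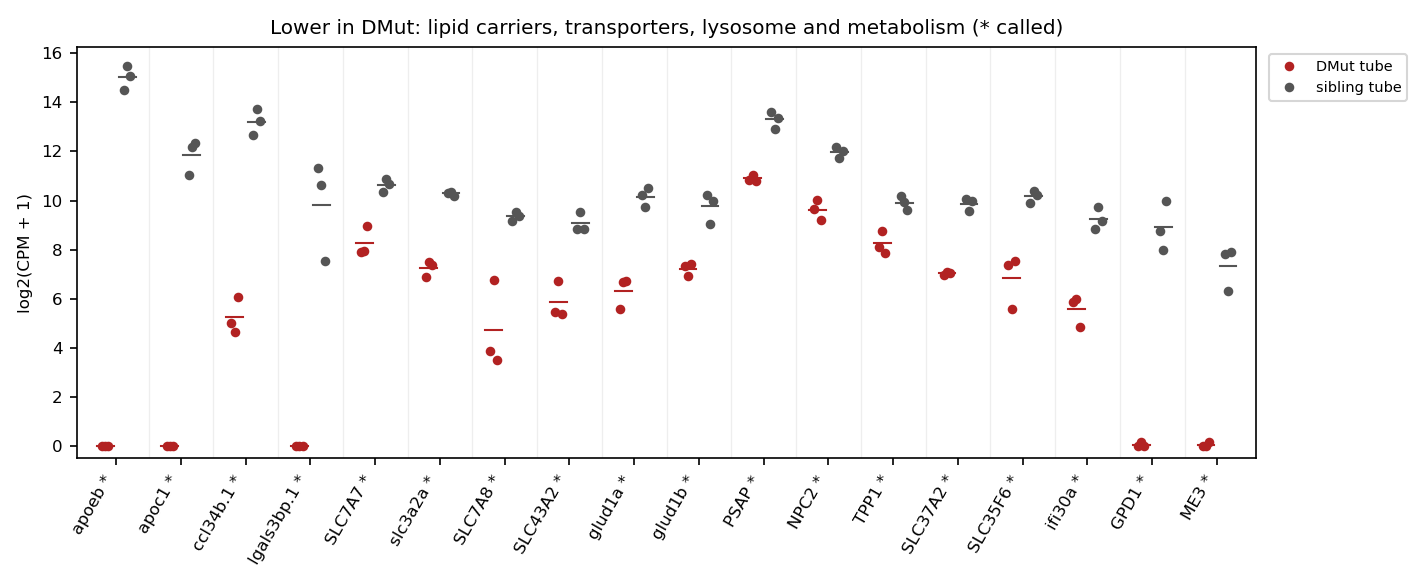
Level of 18 genes in each tube, as log2(CPM + 1), with DMut tubes in red to the left of sibling tubes in grey for each gene. Short bars are group means of the plotted values (n = 3 tubes each) and an asterisk marks a called gene; in all 18 genes every DMut tube lies below every sibling tube, and apoeb, apoc1 and lgals3bp.1 are at 0 CPM in the 3 DMut tubes.

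Lysosomal genes moved in both directions. Of 60 tested lysosomal enzymes and saposins 3 fell and 2 rose, with a median log2 fold change of -0.17 (0.18 with spike-in scaling), and of 26 lysosomal membrane proteins 2 fell and 0 rose, with a median of -0.48. Lower genes made up 5.0% of the enzyme list, 7.692% of the membrane list and 0.462% of all genes tested. Higher genes made up 3.333% of the enzyme list and 0.252% of all genes tested. PSAP (ENSDARG00000013968), the precursor of the saposins that help enzymes degrade sphingolipids, had 1846, 2137 and 1796 CPM in DMut and 12523, 7768 and 10619 CPM in siblings and fell 5.35-fold (log2 fold change -2.42 ± 0.23 SE, adjusted p = 6.86e-10). TPP1 (ENSDARG00000042793), a tripeptidyl peptidase, had 276, 436 and 235 CPM in DMut and 1179, 983 and 782 CPM in siblings (log2 fold change -1.64 ± 0.42 SE, adjusted p = 0.0455). NPC2, given above, was the third lower enzyme-list member. Of the membrane proteins, SLC37A2 (ENSDARG00000023394), a sugar phosphate carrier that zebrafish microglia need to shrink their phagosomes, had 125, 135 and 129.9 CPM in DMut and 1066, 766 and 1023 CPM in siblings and fell 7.32-fold (log2 fold change -2.87 ± 0.42 SE, adjusted p = 1.96e-05). Its DMut tubes lay within a narrow range. SLC35F6 (ENSDARG00000016745) had 167, 47.0 and 187 CPM in DMut and 961, 1341 and 1212 CPM in siblings and fell 8.76-fold (log2 fold change -3.13 ± 0.47 SE, adjusted p = 8.29e-05). ifi30a (ENSDARG00000056378), a thiol reductase that opens disulfide bonds of proteins in the lysosome, had 58.1, 62.8 and 28.0 CPM in DMut and 464, 861 and 576 CPM in siblings and was the 1 lower member of 12 tested on the antigen presentation list (log2 fold change -3.67 ± 0.66 SE, adjusted p = 0.000685). In the fits with 1 tube fewer, edgeR no longer called TPP1 (DMut replicates 1 and 3 and sibling replicates 1, 2 and 3, adjusted p = 0.0755 to 0.293). Under other processing, spike-in scaling ended the calls of TPP1, SLC37A2, SLC35F6 and ifi30a; robust=FALSE and fitting the 6 tubes alone each ended that of TPP1; limma voom ended those of PSAP, SLC37A2, SLC35F6 and ifi30a.

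Some other lysosomal genes rose. ACP5 (ENSDARG00000019763), the tartrate-resistant acid phosphatase known from osteoclasts, had 796, 1952 and 732 CPM in DMut and 191, 77.0 and 107 CPM in siblings and rose 9.30-fold (log2 fold change 3.22 ± 0.62 SE, adjusted p = 0.00412). SCPEP1 (ENSDARG00000040072), a serine carboxypeptidase, had 1506, 4318 and 1729 CPM in DMut and 1129, 453 and 472 CPM in siblings and rose 3.68-fold (log2 fold change 1.88 ± 0.38 SE, adjusted p = 0.0123). DMut replicate 2 was the highest tube for both. Outside the list, the aspartic protease gene napsa (ENSDARG00000009313) had 612, 756 and 1124 CPM in DMut and 143, 219 and 231 CPM in siblings (log2 fold change 2.07 ± 0.53 SE, adjusted p = 0.0454). lygl1 (ENSDARG00000056874), a g-type lysozyme that attacks bacterial walls, had 1099, 719.9 and 793 CPM in DMut and 197, 45.7 and 80.9 CPM in siblings (log2 fold change 3.01 ± 0.70 SE, adjusted p = 0.0378). ATP6V0C (ENSDARG00000057853), which forms the proton-carrying ring of the vacuolar ATPase, had 2236, 3369 and 4485 CPM in DMut and 1003, 1182 and 858 CPM in siblings and rose 3.32-fold (log2 fold change 1.73 ± 0.29 SE, adjusted p = 0.000229). It was the 1 called member of 20 tested V-ATPase genes, whose median log2 fold change was 0.25. Abundant proteases that did not pass lay on both sides. The cathepsin CTSK (ENSDARG00000040251) had 981, 6544 and 2615 CPM in DMut and 815, 1005 and 598 CPM in siblings (adjusted p = 0.393). ctsla (ENSDARG00000007836) had 537, 2531 and 456 CPM in DMut and 3039, 5215 and 4039 CPM in siblings (adjusted p = 0.402). Leaving out 1 tube ended the calls of ACP5 (DMut replicate 2 and sibling replicate 2, adjusted p = 0.0579 to 0.108), SCPEP1 (DMut replicate 2 and sibling replicate 2, adjusted p = 0.0622 to 0.139), napsa (any tube, adjusted p = 0.0603 to 0.393) and lygl1 (DMut replicate 1 and sibling replicates 2 and 3, adjusted p = 0.0634 to 0.297). In other settings, DESeq2 size factors ended the calls of SCPEP1 and napsa; spike-in scaling ended those of SCPEP1, napsa and ATP6V0C; testing without the count filter ended that of napsa; robust=FALSE ended those of ACP5, SCPEP1, napsa and lygl1; fitting the 6 tubes alone ended that of SCPEP1; limma voom ended those of ACP5, SCPEP1 and ATP6V0C. Without DMut replicate 2, the log2 fold change of ACP5 was 2.62 and the log2 fold change of SCPEP1 was 1.24. Without sibling replicate 1, the log2 fold change of lygl1 was 3.78. CTSK was called under 2 of the 14 alternatives.

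Enzymes of intermediary metabolism beyond those above included 3 more lower genes. ME3 (ENSDARG00000002305), a mitochondrial malic enzyme that makes NADPH, had 0, 0 and 0.107 CPM in DMut and 227, 77.6 and 241 CPM in siblings. Its single DMut count gave a pooled count ratio of 5865-fold (95% counting interval 1052 to 231670) lower in DMut (adjusted p = 2.08e-05). PCBD1 (ENSDARG00000031981), which recycles tetrahydrobiopterin, the cofactor of aromatic amino acid hydroxylases, had 0, 0 and 0 CPM in DMut and 587, 552 and 535 CPM in siblings and was at least 5663-fold lower (adjusted p = 0.000541). UCP2 (ENSDARG00000043154), a carrier of the inner mitochondrial membrane, had 565, 305 and 348 CPM in DMut and 2650.3, 768 and 859 CPM in siblings, with sibling replicate 1 far above the other tubes (log2 fold change -1.81 ± 0.43 SE, adjusted p = 0.0255). Of 31 tested citric acid cycle and malate genes 1 fell and 0 rose, with a median log2 fold change of -0.34 (0.06 with spike-in scaling). Of 78 nuclear genes of oxidative phosphorylation none was called by edgeR, with a median of -0.34 (0.11 with spike-in scaling). Of 30 tested genes of glycolysis and the pentose phosphate path 1 (GPD1) fell, and the median was 0.25. There the pentose phosphate enzyme genes PGD (ENSDARG00000015343), with 944, 860.0 and 1079.7 CPM in DMut and 170.2, 186 and 404 CPM in siblings (log2 fold change 1.92 ± 0.53 SE, adjusted p = 0.0864), and TALDO1 (ENSDARG00000103369), with 629, 526 and 765 CPM in DMut and 119.9, 267 and 313 CPM in siblings (log2 fold change 1.46 ± 0.53 SE, adjusted p = 0.393; chosen after its values were seen), were higher in every DMut tube without passing. The call of UCP2 (DMut replicates 2 and 3 and sibling replicate 1, adjusted p = 0.0764 to 0.587) did not hold with 1 tube left out. Of the other alternatives, DESeq2 size factors, spike-in scaling, robust=FALSE, fitting the 6 tubes alone and limma voom each ended the call of UCP2. Without sibling replicate 1, the log2 fold change of UCP2 was -1.0. PGD was called under 6 of the 14 alternatives.

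Immediate early genes, which cells switch on within minutes of a stimulus, included 5 lower genes. Of 44 tested members 5 fell (11.36%, against 0.462% of all genes tested), 0 rose and 39 were not called, and the median log2 fold change was -1.53. In 18 members every DMut tube lay below every sibling tube, which held for 7.33% of all genes tested. GADD45B (ENSDARG00000013576), a stress-induced regulator, had 0, 0 and 0 CPM in DMut and 152, 468 and 274 CPM in siblings and was at least 3026-fold lower (adjusted p = 5.3e-12), the smallest p of the comparison. The other ID of this symbol, GADD45B (ENSDARG00000027744), had overlapping values of 218, 313 and 442 CPM in DMut and 378, 427 and 475 CPM in siblings (log2 fold change -0.40 ± 0.51, turning to 0.01 with spike-in scaling; chosen after its values were seen). FOS (ENSDARG00000031683), a subunit of the AP-1 transcription factor, had 44.1, 26.5 and 55.2 CPM in DMut and 613, 131 and 349 CPM in siblings and fell 8.68-fold (log2 fold change -3.12 ± 0.61 SE, adjusted p = 0.00269). Its partner JUNB fell under both IDs, with 198, 167 and 107 CPM in DMut and 750.2, 504 and 730.1 CPM in siblings for ENSDARG00000074378 (log2 fold change -2.07 ± 0.46 SE, adjusted p = 0.0119) and 519, 115 and 138 CPM in DMut and 875, 929.9 and 992 CPM in siblings for ENSDARG00000104773 (log2 fold change -1.86 ± 0.43 SE, adjusted p = 0.0159). NR4A1 (ENSDARG00000000796), an orphan nuclear receptor, had 224, 160.3 and 126 CPM in DMut and 684, 831 and 471 CPM in siblings (log2 fold change -1.96 ± 0.45 SE, adjusted p = 0.0159). JUN (ENSDARG00000043531) had 0, 0 and 89.8 CPM in DMut and 2792, 187 and 532 CPM in siblings and ATF3 (ENSDARG00000007823) had 238, 604 and 182 CPM in DMut and 869, 1080.4 and 733 CPM in siblings. Neither passed (adjusted p = 0.42 and adjusted p = 0.309), although every DMut tube lay below every sibling tube. With 1 tube left out, the test no longer called FOS (sibling replicate 1, adjusted p = 0.0528), JUNB (ENSDARG00000074378, DMut replicate 3 and sibling replicates 1 and 3, adjusted p = 0.0569 to 0.09), JUNB (ENSDARG00000104773, DMut replicates 2 and 3 and sibling replicates 2 and 3, adjusted p = 0.0568 to 0.183) and NR4A1 (DMut replicates 2 and 3 and sibling replicates 1 and 2, adjusted p = 0.0575 to 0.129). Other processing mattered too, as spike-in scaling and robust=FALSE each ended the calls of FOS, JUNB (ENSDARG00000074378), JUNB (ENSDARG00000104773) and NR4A1; fitting the 6 tubes alone ended that of JUNB (ENSDARG00000104773); limma voom ended those of FOS and JUNB (ENSDARG00000074378). Without sibling replicate 1, the log2 fold change of FOS was -2.51. Without DMut replicate 1, the log2 fold change of JUNB (ENSDARG00000104773) was -2.88. ATF3 was called under 2 of the 14 alternatives; JUN under 1.

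Genes of the cell surface, signalling and the cytoskeleton made up much of the remainder. acvrl1 (ENSDARG00000018179), a type I receptor for bone morphogenetic proteins, had 0, 0 and 0 CPM in DMut and 173, 37.4 and 155 CPM in siblings and was at least 1235-fold lower (adjusted p = 0.00412). MTSS2 (ENSDARG00000087260), which bends membranes and binds actin, had 0, 0 and 0 CPM in DMut and 111, 206 and 255 CPM in siblings and was at least 1935-fold lower (adjusted p = 4.68e-07). Both were without a count in DMut and present in each sibling tube. kctd12.2 (ENSDARG00000053542), an auxiliary subunit of GABA-B receptors in mammals, had 95.3, 50.3 and 60.3 CPM in DMut and 542, 695 and 722 CPM in siblings and fell 9.51-fold (log2 fold change -3.25 ± 0.53 SE, adjusted p = 0.000152). ABCC5 (ENSDARG00000061233), an exporter of the ABC family, had 285, 591 and 224 CPM in DMut and 1085, 1787 and 1287 CPM in siblings (log2 fold change -1.92 ± 0.36 SE, adjusted p = 0.00171). sdc4 (ENSDARG00000059906), a heparan sulfate proteoglycan of the cell surface, had 1267, 1133 and 2025 CPM in DMut and 2479, 5422 and 3322 CPM in siblings (log2 fold change -1.34 ± 0.27 SE, adjusted p = 0.00444). In both, every DMut tube lay below every sibling tube. enpp1 (ENSDARG00000005789), an ectoenzyme that splits extracellular nucleotides, had 35.3, 94.6 and 16.7 CPM in DMut and 543, 366 and 309 CPM in siblings (log2 fold change -3.05 ± 0.68 SE, adjusted p = 0.0119). itgae.1 (ENSDARG00000098012), an integrin alpha chain, had 8.93, 0 and 3.43 CPM in DMut and 175, 52.2 and 324 CPM in siblings (log2 fold change -5.47 ± 1.22 SE, adjusted p = 0.0157). A left-out tube ended the calls of sdc4 (DMut replicate 2 and sibling replicate 2, adjusted p = 0.0511 to 0.159), enpp1 (DMut replicates 1 and 3 and sibling replicate 1, adjusted p = 0.0644 to 0.0701) and itgae.1 (DMut replicate 3 and sibling replicate 3, adjusted p = 0.0576 to 0.0767). Among the other alternatives, spike-in scaling ended the calls of kctd12.2, ABCC5, sdc4, enpp1 and itgae.1; robust=FALSE ended those of ABCC5, sdc4, enpp1 and itgae.1; fitting the 6 tubes alone ended those of ABCC5, sdc4 and itgae.1; limma voom ended those of sdc4, enpp1 and itgae.1. Without DMut replicate 2, the log2 fold change of enpp1 was -3.97 and the log2 fold change of itgae.1 was -4.89. Without DMut replicate 1, the log2 fold change of itgae.1 was -6.73. Without sibling replicate 3, the log2 fold change of itgae.1 was -4.76.

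A pair of scinderin-like genes, encoding actin-severing proteins, lay in opposite directions. scinla (ENSDARG00000102415) had 0, 0 and 0 CPM in DMut and 40.4, 217 and 156 CPM in siblings and was at least 1396-fold lower (adjusted p = 0.0118). scinlb (ENSDARG00000058348), named after its values were seen, had 1374, 808 and 1551 CPM in DMut and 0.135, 92.5 and 74.6 CPM in siblings, higher in every DMut tube but not called (log2 fold change 4.48 ± 3.23 SE, adjusted p = 0.854). On the list of actin, adhesion and migration genes 3 of 74 fell (MTSS2, scinla and itgae.1) and 1 rose (LCP1, below), with a median log2 fold change of 0.45. The guanylate-binding GTPase gene gbp2 (ENSDARG00000038669) had 0, 0 and 0 CPM in DMut and 117, 46.2 and 194 CPM in siblings and was at least 1208-fold lower (adjusted p = 0.00711). xaf1 (ENSDARG00000068939), an interferon-induced gene in mammals, had 0, 0 and 0 CPM in DMut and 48.5, 86.4 and 12.4 CPM in siblings and was at least 498-fold lower (adjusted p = 0.0176). The interferon and antiviral list itself had none of 18 members called by edgeR, with a median of -0.18 (0.11 with spike-in scaling). The other lower genes with 0 counts in DMut were BZW2 (ENSDARG00000035918), a regulator of translation start with 1142, 172 and 1429 CPM in siblings (adjusted p = 0.0173), TSPAN10 (ENSDARG00000044767), a tetraspanin with 50.0, 307 and 59.3 CPM (adjusted p = 0.0378), asgr1c.1 (ENSDARG00000108340) with 132, 15.5 and 235 CPM (adjusted p = 0.0245) and si:ch73-281k2.5 with 122, 66.2 and 199 CPM (adjusted p = 0.02). The last called lower gene, zgc:152830, had 333, 269.5 and 390.0 CPM in DMut and 886, 1158 and 835 CPM in siblings (log2 fold change -1.54 ± 0.36 SE, adjusted p = 0.02). In the fits with 1 tube fewer, edgeR no longer called scinla (DMut replicate 1 and sibling replicate 2, adjusted p = 0.0533 to 0.092), xaf1 (DMut replicates 1, 2 and 3 and sibling replicate 2, adjusted p = 0.0576 to 0.0809), BZW2 (DMut replicates 1 and 3 and sibling replicate 1, adjusted p = 0.0518 to 0.0597), TSPAN10 (DMut replicates 1, 2 and 3 and sibling replicate 2, adjusted p = 0.0872 to 0.367), asgr1c.1 (DMut replicates 1, 2 and 3 and sibling replicates 1 and 3, adjusted p = 0.0851 to 0.269), si:ch73-281k2.5 (DMut replicates 1, 2 and 3 and sibling replicates 1 and 3, adjusted p = 0.0518 to 0.107) and zgc:152830 (DMut replicates 1 and 2 and sibling replicate 2, adjusted p = 0.0809 to 0.153). Under other processing, spike-in scaling and fitting the 6 tubes alone each ended the calls of xaf1 and zgc:152830; robust=FALSE ended those of gbp2, xaf1, TSPAN10, si:ch73-281k2.5 and zgc:152830; limma voom ended those of BZW2 and zgc:152830. Without sibling replicate 2, the bound of xaf1 was at least 309-fold.

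Among the higher genes were abundant chaperones. Of 55 tested chaperone and heat shock genes 3 rose (5.455%, against 0.252% of all genes tested) and 0 fell, with a median log2 fold change of 0.28. HSPA8 (ENSDARG00000068992), the constitutive cytosolic HSP70, had 9225, 15188 and 23658 CPM in DMut and 5286, 6579.8 and 5049 CPM in siblings and rose 2.84-fold (log2 fold change 1.51 ± 0.31 SE, adjusted p = 0.0378). The cytosolic HSP90 genes also rose. HSP90AA1 (ENSDARG00000024746) had 10685, 9816 and 12794 CPM in DMut and 6693, 5839 and 5653 CPM in siblings (log2 fold change 0.87 ± 0.20 SE, adjusted p = 0.0147). HSP90AB1 (ENSDARG00000029150) had 4204, 6881 and 7123 CPM in DMut and 2546, 3252 and 2904 CPM in siblings (log2 fold change 1.07 ± 0.25 SE, adjusted p = 0.016). In all 3 every DMut tube lay above every sibling tube, with the widest range among DMut tubes for HSPA8. The inducible gene hsp70l (ENSDARG00000055723) had overlapping values of 15497, 28684 and 25870 CPM in DMut and 12394, 15784 and 22031 CPM in siblings (adjusted p = 0.857). HSPA5 (ENSDARG00000103846), the chaperone of the endoplasmic reticulum, had 4355, 3778 and 4828 CPM in DMut and 4329, 3539 and 2785 CPM in siblings (adjusted p = 0.978). Leaving out 1 tube ended the calls of HSPA8 (DMut replicate 2 and sibling replicates 1, 2 and 3, adjusted p = 0.09 to 0.378), HSP90AA1 (DMut replicate 3 and sibling replicates 2 and 3, adjusted p = 0.0625 to 0.168) and HSP90AB1 (DMut replicates 2 and 3 and sibling replicates 1 and 3, adjusted p = 0.09 to 0.154). In other settings, DESeq2 size factors and testing without the count filter each ended the call of HSPA8; spike-in scaling, robust=FALSE and DESeq2 each ended those of HSP90AA1 and HSP90AB1; fitting the 6 tubes alone and limma voom each ended those of all 3.

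Genes of the translation machinery gave 2 calls, both higher. All 76 tested ribosomal protein genes had a log2 fold change above 0, against 51.8% of all genes tested, and in 51 of them every DMut tube lay above every sibling tube, which held for 9.86% of all genes tested. Their median log2 fold change was 0.81 (1.23 with spike-in scaling, where again all 76 lay above the median of all genes). The 1 called member was RPL3 (ENSDARG00000003599), with 3897, 3553 and 5969 CPM in DMut and 1687, 2512 and 2065 CPM in siblings (a 2.14-fold rise, adjusted p = 0.0454). RPS2 (ENSDARG00000077291) was more typical, with 3087, 3285 and 4134 CPM in DMut and 1865, 2557 and 2032 CPM in siblings (log2 fold change 0.70 ± 0.25 SE, adjusted p = 0.393). Of 44 tested translation factors 1 rose, eef1a1l1 (ENSDARG00000020850), which brings aminoacyl-tRNA to the ribosome, with 7476, 10660 and 12547 CPM in DMut and 2734, 4983 and 3009 CPM in siblings (log2 fold change 1.52 ± 0.28 SE, adjusted p = 0.00753). The list's median was 0.44, with 31 members above 0 and 13 below. Transcripts encoded in the mitochondria had a median of 0.14 over 13 genes, none called by edgeR. The calls of RPL3 (DMut replicates 1 and 3 and sibling replicates 1, 2 and 3, adjusted p = 0.0555 to 0.365) and eef1a1l1 (sibling replicate 1, adjusted p = 0.0569) did not hold with 1 tube left out. Of the other alternatives, spike-in scaling, robust=FALSE, fitting the 6 tubes alone, DESeq2 and limma voom each ended the call of RPL3.

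**Figure D3:**
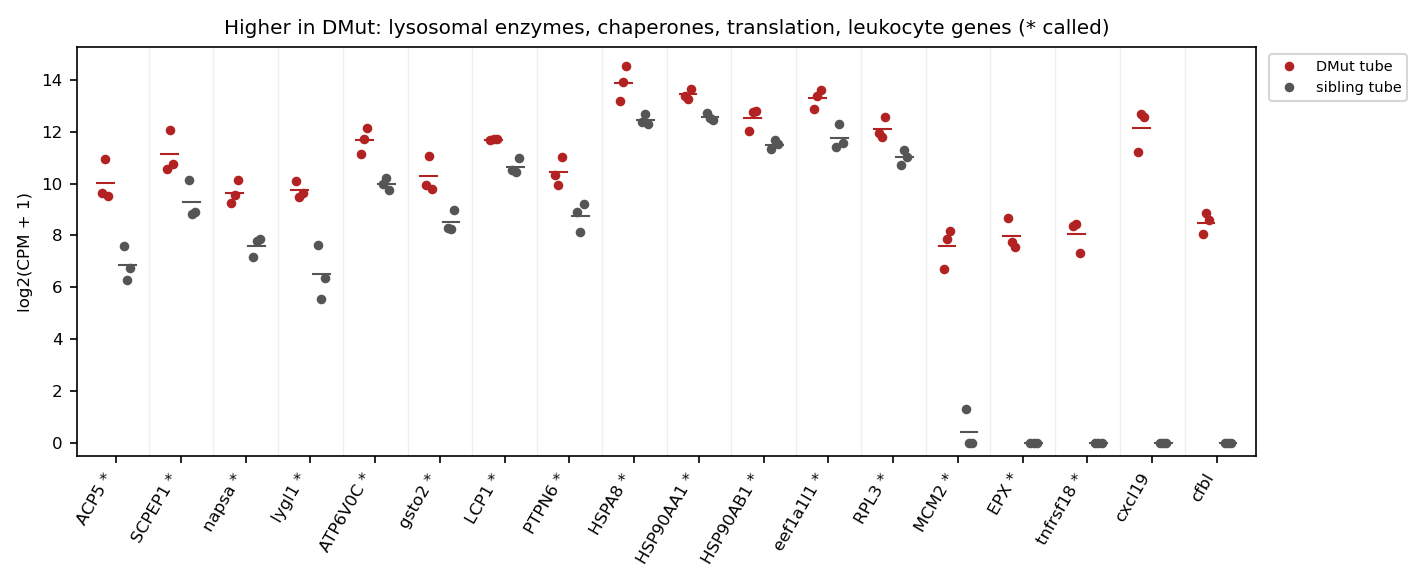
Level of 18 genes in each tube, as log2(CPM + 1), with DMut tubes in red to the left of sibling tubes in grey for each gene. Short bars are group means of the plotted values (n = 3 tubes each) and an asterisk marks a called gene; every DMut tube lies above every sibling tube, and EPX, tnfrsf18, cxcl19 and cfbl are at 0 CPM in the 3 sibling tubes.

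Called leukocyte genes were few. Of 37 tested macrophage and pan-leukocyte genes 2 rose (5.405%, against 0.252% of all genes tested) and 0 fell, with a median log2 fold change of 0.35. Members lay apart in both directions. In 14 every DMut tube lay above every sibling tube and in 10 below (9.86% and 7.33% over all genes tested). LCP1 (ENSDARG00000023188), the leukocyte actin bundler L-plastin, had 3243, 3315 and 3382 CPM in DMut and 1481, 1388 and 1999 CPM in siblings (log2 fold change 1.03 ± 0.26 SE, adjusted p = 0.04), values nearly identical across DMut tubes. PTPN6 (ENSDARG00000089043), the phosphatase SHP-1 that damps signals of immune receptors, had 1285, 977 and 2079 CPM in DMut and 473, 282 and 594 CPM in siblings and rose 3.22-fold (log2 fold change 1.69 ± 0.39 SE, adjusted p = 0.0173). NCF1 and cybb encode subunits of the phagocyte NADPH oxidase, which makes superoxide, and were higher in every DMut tube but not called. NCF1 (ENSDARG00000033735) had 1012, 592 and 1203 CPM in DMut and 195, 405 and 281 CPM in siblings (log2 fold change 1.67 ± 0.46 SE, adjusted p = 0.0859). cybb (ENSDARG00000056615), chosen after its values were seen, had 665, 373 and 749.7 CPM in DMut and 45.6, 93.8 and 130.4 CPM in siblings (log2 fold change 2.73 ± 0.74 SE, adjusted p = 0.0864). Of 39 tested genes of the NADPH oxidase and redox list 2 rose (5.128%, against 0.252% of all genes tested) and 0 fell, with a median of 0.88. One was gsto2 (ENSDARG00000033285), a glutathione transferase, with 992, 2162 and 886 CPM in DMut and 309.8, 307 and 510.5 CPM in siblings (log2 fold change 1.84 ± 0.37 SE, adjusted p = 0.004). The other was EPX (ENSDARG00000019521), a peroxidase, with 411, 212 and 185 CPM in DMut and 0, 0 and 0 CPM in siblings (at least 3366-fold higher, adjusted p = 0.0017). EPX is read here as the zebrafish neutrophil marker known as mpx, a name that the gene table does not give. EPX was not on the neutrophil list, so the shares and calls of that list leave it out. The neutrophil markers lyz, npsn and mmp13a had counts in some of the same tubes. With 1 tube left out, the test no longer called LCP1 (any tube, adjusted p = 0.0629 to 0.222), PTPN6 (DMut replicate 3 and sibling replicates 1 and 2, adjusted p = 0.0894 to 0.185), gsto2 (DMut replicate 2, adjusted p = 0.218) and EPX (DMut replicate 1, adjusted p = 0.13). Other processing mattered too, as DESeq2 size factors ended the calls of LCP1 and PTPN6; spike-in scaling, robust=FALSE and fitting the 6 tubes alone each ended those of LCP1, PTPN6 and gsto2; DESeq2 ended that of LCP1; limma voom ended those of PTPN6 and gsto2. cybb was called under 4 of the 14 alternatives; NCF1 under 1.

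Inflammatory genes held called members in both directions. Of 53 tested cytokine, chemokine and TNF family genes 2 rose and 2 fell (ccl34b.1 and gbp2), with a median log2 fold change of 0.05. tnfrsf18 (ENSDARG00000076800), a receptor of the TNF family, had 333, 343 and 157 CPM in DMut and 0, 0 and 0 CPM in siblings and was at least 3470.1-fold higher (adjusted p = 0.00753). tnfaip2b (ENSDARG00000058160), a gene induced by TNF in mammals, had 459, 0.236 and 149 CPM in DMut and 0, 0 and 0 CPM in siblings and was at least 2531-fold higher (adjusted p = 0.0129). In DMut replicate 2 it was all but absent, at 0.236 CPM. dicp2.1 (ENSDARG00000035101), of a family of immunoglobulin-domain receptors in fish, had 231, 88.0 and 221 CPM in DMut and 0, 0 and 0 CPM in siblings and was at least 2247-fold higher (adjusted p = 0.0358). The abundant cytokine gene il1b (ENSDARG00000098700) had overlapping values of 597, 1367 and 2198 CPM in DMut and 749.8, 4441 and 2289 CPM in siblings (adjusted p = 0.978). Below the siblings but not called were tnfsf12 (ENSDARG00000069376), a TNF family ligand, with 73.4, 46.4 and 95.7 CPM in DMut and 386, 303 and 325 CPM in siblings (log2 fold change -2.23 ± 0.59 SE, adjusted p = 0.0573), and pycard (ENSDARG00000040076), the inflammasome adaptor, with 78.4, 95.1 and 149 CPM in DMut and 429, 216 and 453 CPM in siblings (log2 fold change -1.77 ± 0.47 SE, adjusted p = 0.0582), both chosen after their values were seen. A left-out tube ended the calls of tnfrsf18 (DMut replicates 1 and 2 and sibling replicate 1, adjusted p = 0.0528 to 0.0696), tnfaip2b (DMut replicate 1 and sibling replicates 1, 2 and 3, adjusted p = 0.0612 to 0.435) and dicp2.1 (any tube, adjusted p = 0.0646 to 0.219). Among the other alternatives, robust=FALSE ended the calls of all 3; fitting the 6 tubes alone and limma voom each ended that of tnfaip2b. DESeq2 gave no adjusted p for tnfrsf18, so it was not called there. Without DMut replicate 1, the bound of tnfaip2b was at least 932-fold. pycard was called under 5 of the 14 alternatives; tnfsf12 under 4.

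A single replication gene was called higher. MCM2 (ENSDARG00000102798), a subunit of the helicase that opens DNA for replication, had 104, 232 and 290.1 CPM in DMut and 1.49, 0 and 0 CPM in siblings and rose in the test (log2 fold change 8.66 ± 1.84 SE, adjusted p = 0.00753). Of 57 tested replication and cell cycle genes it was the only one called by edgeR, with a median log2 fold change of 1.51. The log2 fold change was above 0 in 44 and below 0 in 13, against 51.8% above 0 over all genes tested. In 12 every DMut tube lay above every sibling tube and in 1 below (9.86% and 7.33% over all genes tested). The remaining named higher genes were rcan1a (ENSDARG00000003109), a regulator of the phosphatase calcineurin, with 739, 898 and 785 CPM in DMut and 317, 99.9 and 179 CPM in siblings (log2 fold change 2.02 ± 0.52 SE, adjusted p = 0.0437), and ppp2r2ab (ENSDARG00000006624), a regulatory subunit of protein phosphatase 2A, with 61.3, 0.236 and 91.2 CPM in DMut and 0, 0 and 0 CPM in siblings (at least 636-fold higher, adjusted p = 0.0119). DMut replicate 2 held almost none of ppp2r2ab. Genes without a descriptive name also rose. si:dkey-238c7.12 had 3272, 4019 and 4320.1 CPM in DMut and 534, 1270.0 and 1121 CPM in siblings (log2 fold change 1.99 ± 0.31 SE, adjusted p = 7.06e-05) and si:ch211-265g21.1 had 956, 944 and 551 CPM in DMut and 153, 191 and 73.8 CPM in siblings (log2 fold change 2.55 ± 0.47 SE, adjusted p = 0.00117). The others were si:dkey-151g10.6, with 1848, 2090.1 and 2625 CPM in DMut and 723, 1255 and 931 CPM in siblings (log2 fold change 1.17 ± 0.30 SE, adjusted p = 0.04), and the unnamed ID ENSDARG00000100461, with 935, 1262 and 602 CPM in DMut and 166, 251 and 356 CPM in siblings (log2 fold change 1.86 ± 0.44 SE, adjusted p = 0.02). In the fits with 1 tube fewer, edgeR no longer called MCM2 (DMut replicate 3, adjusted p = 0.0553), rcan1a (DMut replicates 1, 2 and 3 and sibling replicates 2 and 3, adjusted p = 0.122 to 0.296), ppp2r2ab (sibling replicates 1 and 2, adjusted p = 0.0528 to 0.059), si:dkey-151g10.6 (DMut replicates 1, 2 and 3 and sibling replicates 1 and 3, adjusted p = 0.0537 to 0.355) and ENSDARG00000100461 (DMut replicates 1 and 2 and sibling replicates 1 and 2, adjusted p = 0.0614 to 0.248). Under other processing, DESeq2 size factors and testing without the count filter each ended the call of rcan1a; spike-in scaling ended those of rcan1a, si:dkey-151g10.6 and ENSDARG00000100461; robust=FALSE ended those of MCM2, rcan1a, ppp2r2ab, si:ch211-265g21.1, si:dkey-151g10.6 and ENSDARG00000100461; fitting the 6 tubes alone ended those of MCM2, rcan1a, ppp2r2ab, si:dkey-151g10.6 and ENSDARG00000100461; limma voom ended those of ppp2r2ab, si:dkey-238c7.12, si:ch211-265g21.1, si:dkey-151g10.6 and ENSDARG00000100461. Without sibling replicate 1, no sibling count of MCM2 remained. Without DMut replicate 3, the bound of ppp2r2ab was at least 384-fold.

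Presence and absence were counted apart from the calls. Genes with 0 counts in the 3 DMut tubes and at least 10 counts in each sibling tube numbered 95 of the 9519 tested. Of these 16 were called with all 12 tubes in the fit, 22 with the 6 tubes alone and 71 by DESeq2. Over all 9519 genes tested the lower calls numbered 44, 53 and 387 in the same order. The 95 were picked by these same counts, so calls among them are not separate support. Of the 95, 89 had a count in some mafba tube and 60 in some mafbb tube. Genes with a count numbered 7038 to 10521 in mafba tubes and 5100 to 6141 in mafbb tubes. The part of this in the smaller mafbb number was not tested. The 10 with the highest sibling level were apoeb, apoc1, selenop, lgals3bp.1, BZW2, g0s2, PCBD1, MT1X, RBP2 and GADD45B. Those of the 10 that were not called follow. g0s2 (ENSDARG00000078859), an inhibitor of the lipase that empties lipid droplets, had 0, 0 and 0 CPM in DMut and 829, 667 and 314 CPM in siblings (at least 6123-fold lower, adjusted p = 0.393). MT1X (ENSDARG00000041623), a metallothionein that binds zinc and copper, had 0, 0 and 0 CPM in DMut and 799, 200.2 and 509.8 CPM in siblings (at least 5106-fold lower, adjusted p = 0.332). RBP2 (ENSDARG00000070038), a cellular retinol-binding protein, had 0, 0 and 0 CPM in DMut and 224, 79.8 and 606 CPM in siblings (at least 3078-fold lower, adjusted p = 0.393). With the 6 tubes alone the adjusted p was 1.35e-05 for g0s2, 3.95e-05 for MT1X and 0.000429 for RBP2. RBP2 was called under 4 of the 14 alternatives; g0s2 and MT1X under 3.

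In the other direction, 220 of the 9519 genes tested had 0 counts in the 3 sibling tubes and at least 10 in each DMut tube. More genes had a count in DMut tubes (7808 to 9297) than in sibling tubes (7077 to 7665). The part of this in the larger number was not tested. Of the 220, 3 were called with all 12 tubes in the fit (EPX, tnfrsf18 and dicp2.1), 21 with the 6 tubes alone and 129 by DESeq2. Over all genes tested the higher calls numbered 24, 40 and 521 in the same order. The 220 too were picked by these same counts. Among the 220, 169 had a count in some mafba tube and 93 in some mafbb tube, where fewer genes had a count at all, as given above. The most abundant was cxcl19 (ENSDARG00000102776), a CXC chemokine, with 2363, 6554 and 5968 CPM in DMut and 0, 0 and 0 CPM in siblings, at least 61968-fold higher by the floor. It was not called in the fit of all 12 tubes (adjusted p = 0.393), in which its mafba tubes had 38.3, 0.365 and 662 CPM and its mafbb tubes 0, 58.9 and 76.9 CPM, and was called with the 6 tubes alone (adjusted p = 1.37e-06). cfbl (ENSDARG00000090730), which resembles complement factor B, had 266, 462 and 381 CPM in DMut and 0, 0 and 0 CPM in siblings (adjusted p = 0.393). AKR1B1 (ENSDARG00000006215), an aldose reductase, had 90.6, 185 and 271 CPM in DMut and 0, 0 and 0 CPM in siblings (adjusted p = 0.265). The matrix metalloprotease gene mmp25b (ENSDARG00000010556), on the neutrophil list, had 128, 144 and 197 CPM in DMut and 0, 0 and 0 CPM in siblings (adjusted p = 0.0582). The rest of the 10 most abundant were ENSDARG00000103077, named after a clone, with 261, 604 and 769 CPM in DMut, BHLHE41, tnfrsf18, EPX, dicp2.1 and the unnamed ID ENSDARG00000033587 with 178, 109 and 210.2 CPM in DMut. AKR1B1 and mmp25b were each called under 6 of the 14 alternatives; cfbl and ENSDARG00000033587 under 5; cxcl19 and ENSDARG00000103077 under 3.

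Lists without a call by edgeR, or of cells other than macrophages, are given by their medians. None of 46 tested proteasome genes (median log2 fold change -0.19, and 0.21 with spike-in scaling) and none of 7 complement genes (0.19) was called. The neutrophil list, which does not hold EPX, had none of 8 called, all above 0 with a median of 1.86. In 6 of them every DMut tube lay above every sibling tube (9.86% over all genes tested). The epidermal and metaphocyte list had none of 6 called, with a median of 5.41, and the radial glia list none of 7, with 2.80, although its summed share of counts was lower in DMut. The neuronal list had none of 5 called, with a median of 6.54, or 3.48 when genes without a count in a group were set at their bound. That 6.54 is the value of 1 STMN1 ID (ENSDARG00000033655), with 0, 0 and 25 counts in DMut and 0 in siblings. The endothelial list had 1 of 6 called lower, stab1, with a median of -10.27, or -6.92 at the bound. Few IDs of these lists were tested, 5 of 23 neuronal, 6 of 23 epidermal and metaphocyte and 6 of 21 endothelial. A gene can pass the filter through the group where it is high, so these medians describe the tested members only. Of the 17 tested engulfment and scavenger receptors 2 fell (SLC37A2 and stab1) and 0 rose, with a median of -1.97. The share that fell was 11.76%, against 0.462% of all genes tested.

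**Figure D4:**
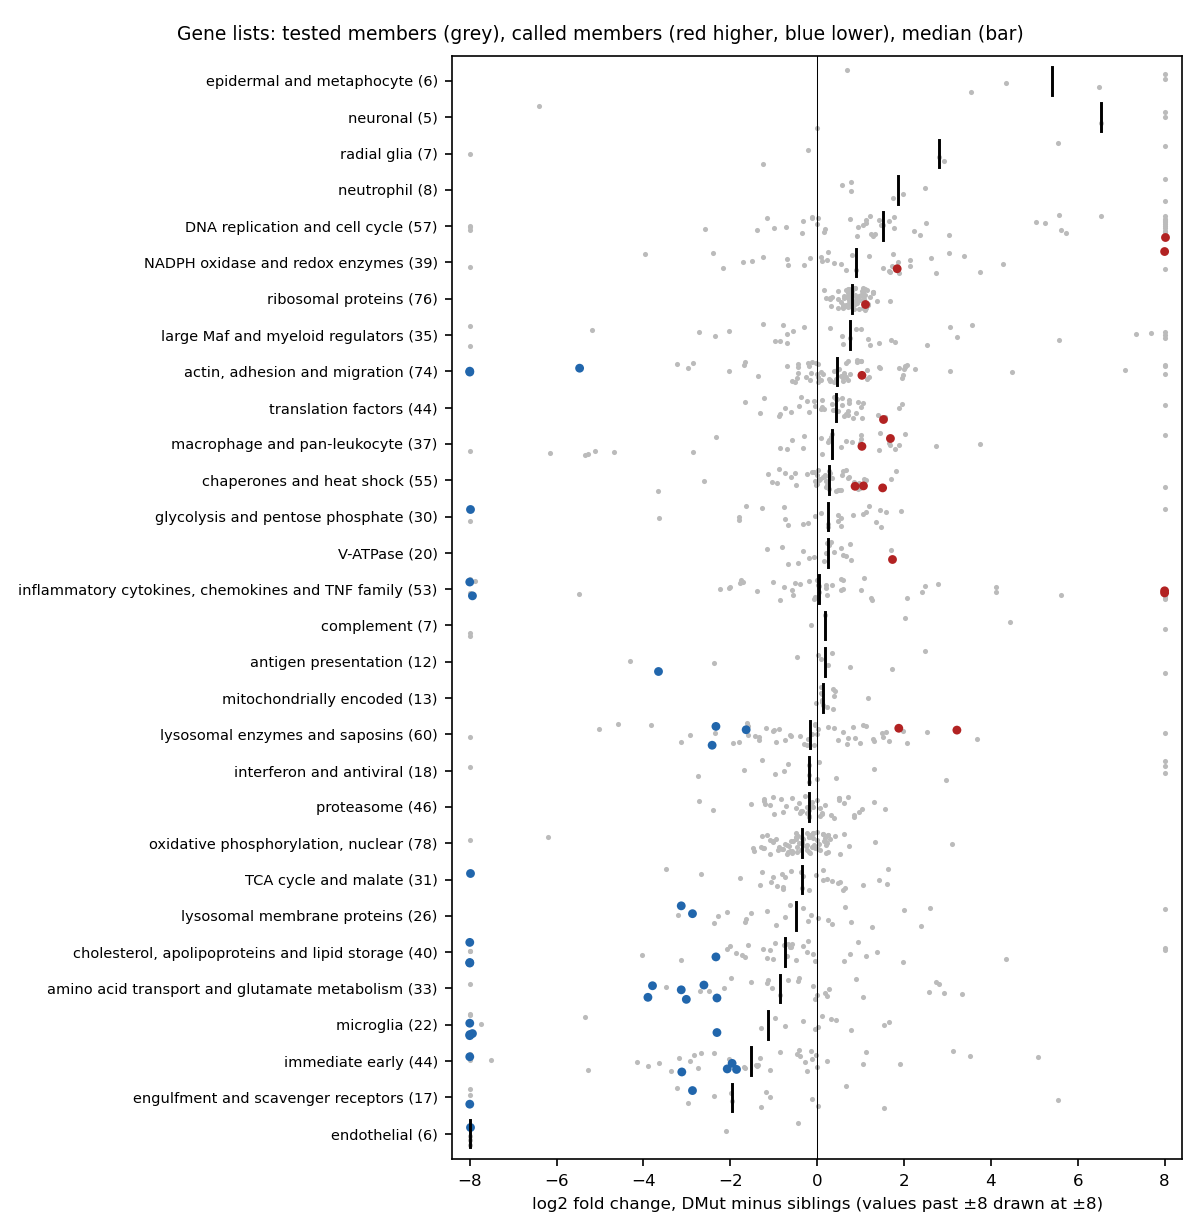
Log2 fold change (DMut minus siblings, horizontal axis) of the tested members of each gene list, with their number in brackets and values past ±8 drawn at ±8. Grey points were not called, red points were called higher and blue points lower in DMut, and black bars are medians; the microglia, immediate early and amino acid lists have medians below 0 with 5, 5 and 6 called lower, and all 76 ribosomal protein genes lie above 0.

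The single-mutant tubes share the siblings as their controls, so their levels are set beside the others without a test. apoeb averaged 0 ± 0 CPM in DMut, 17764 ± 19820 in mafba, 17471 ± 8692 in mafbb and 34545 ± 11140 in siblings (SD, n = 3 tubes each). Its mafba tubes ranged widely, with 4282, 40525 and 8485 CPM. ccl34b.1 averaged 40.5 ± 22.0 CPM in DMut, 6667 ± 3513 in mafba, 7289 ± 699 in mafbb and 9945 ± 3659 in siblings. Every tube of either single mutant held more of both than any DMut tube. PSAP averaged 1926 ± 184 CPM in DMut, 8048 ± 2942 in mafba, 4563 ± 591 in mafbb and 10303 ± 2393 in siblings, and SLC37A2 130.0 ± 5.39, 1022 ± 401, 323 ± 116 and 951 ± 162 CPM in the same order. For these lysosomal genes the mafbb tubes lay between DMut and siblings without overlap, at 3981, 4545 and 5163 CPM for PSAP and 209.9, 441 and 318 CPM for SLC37A2. GPD1 averaged 0.0393 ± 0.068 CPM in DMut, 344 ± 224 in mafba, 206 ± 129 in mafbb and 564 ± 397 in siblings. GADD45B (ENSDARG00000013576) was present in every mafba tube (147, 392 and 290.0 CPM) and every mafbb tube (138, 1036 and 315 CPM).

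Among the higher genes, EPX had no count in any single-mutant tube, and tnfrsf18 had 0 CPM in mafba and 0, 6.18 and 0 CPM in mafbb. ACP5 averaged 1160.0 ± 687 CPM in DMut, 155 ± 116 in mafba, 61.3 ± 1.59 in mafbb and 125 ± 58.9 in siblings. MCM2 had 171, 42.1 and 228 CPM in mafba tubes and no count in mafbb tubes. ppp2r2ab had 117, 126 and 92.7 CPM in mafba and 37.3, 4.24 and 269 CPM in mafbb. The mafbb levels overlapped those of DMut, and every mafba tube lay above every DMut tube, the closest at 92.7 against 91.2 CPM. MAFA had 47.3, 178 and 134 CPM in mafba and 0.252, 324 and 0 CPM in mafbb, and was thus at or near 0 in DMut and in 2 of the mafbb tubes.

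**Figure D5:**
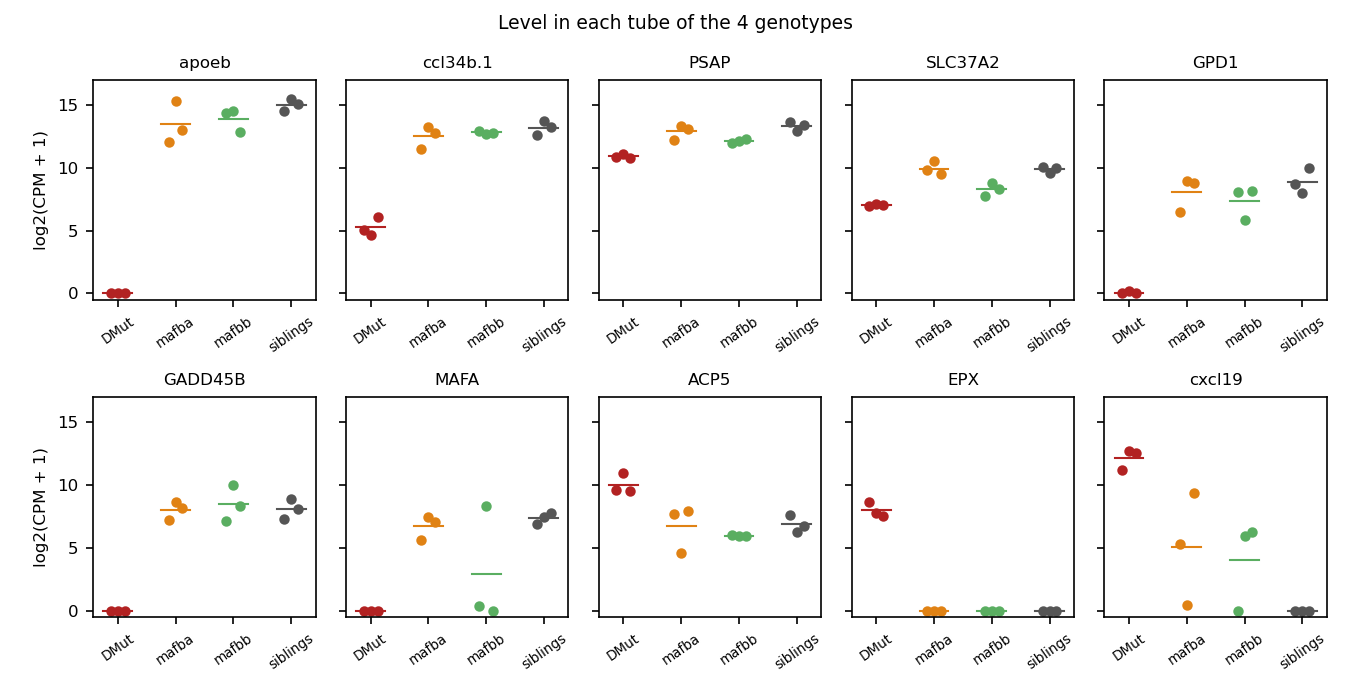
Level of 10 genes in each tube of DMut, mafba, mafbb and siblings, left to right, as log2(CPM + 1), with bars at the mean of the plotted values (n = 3 tubes each). apoeb and GADD45B are at 0 CPM in the DMut tubes and in no other tube, MAFA is at 0 CPM in the 3 DMut tubes and in mafbb replicate 3, EPX has counts in DMut tubes alone, and PSAP and SLC37A2 lie lower in mafbb than in sibling tubes.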

How the data were processed

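Poly(A) RNA of picked cells, labelled as microglia, was measured by Smart-seq2 in 12 tubes, 3 for each of DMut, mafba, mafbb and siblings. Total counts ran from 10014888 to 17689266 over the 12 tubes. The values are whole-number counts per gene, deposited by the authors without normalization. Trim Galore, STAR and the build GRCz11 (danRer11) are named in the submitters' processing notes; the counting tool, annotation, strand setting and versions are not stated there. Of 35209 entries, 92 were ERCC spike-ins (37 with a count) and left out of tests; 27000 of 35117 gene IDs matched a symbol.

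Genes were kept by filterByExpr (minimum count 10, minimum total 15), libraries were scaled by TMM, and edgeR 4.0.16 (R 4.3.3) fitted 1 quasi-likelihood model (robust=TRUE) over the 12 tubes with the 4 genotypes as groups. The contrast was DMut minus siblings, with Benjamini-Hochberg adjustment over 9519 genes. Each SE of a log2 fold change was back-calculated, as its absolute value divided by the square root of the quasi-likelihood F statistic. The common dispersion was 4.0 and the biological coefficient of variation 2.0. The steps were tested on simulated data, with the outcome not reported here. With so wide a spread, a gene that was not called is not shown to be alike in the groups. Intervals and floors cover counting error only, since the reads carried no molecular identifiers.

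The comparison, the gene lists and the naming rule were chosen with earlier results of these data known. The rule names every called gene, called list members, up to 6 abundant members per list that did not pass, and the 10 most abundant genes silent in a group; exceptions are marked. Some genes that the rule covers, the mutated ones among them, are not reported here. Of 1395 list members written, 67 had no match. Alternatives were DESeq2 size factors, spike-in scaling, no filter, robust=FALSE, the 6 tubes alone, a replicate block, DESeq2 1.42.0, limma voom (limma 3.58.1) and each tube left out.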

Additional observations from a re-analysis of the deposited data

How the results depend on the processing

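Relative to 24 higher and 44 lower genes, the count of higher genes was 45 without the filter, 6 with robust=FALSE, 40 with the 6 tubes alone, 521 with DESeq2 and 247 with limma voom, and 11 to 19 with 1 tube left out. Lower genes numbered 25 with spike-in scaling, 70 without the filter, 387 with DESeq2, 123 with limma voom and 32 to 45 with 1 tube left out. DESeq2 gave no adjusted p for 974 genes, which are taken as not called. DESeq2 size factors in edgeR gave 18 higher and 46 lower genes. Shared with the 24 and 44 were 12 higher and 21 lower genes under spike-in scaling, 19 and 43 under DESeq2 and 9 and 18 under limma voom. The replicate numbers did not pair the tubes (correlations of deviations 0.00514, 0.0356 and 0.0088 between same-numbered tubes), and a replicate block gave 53 higher and 70 lower genes, with 24 and 42 shared; apoc1 and selenop were not called under it. The log2 fold change of GADD45B (ENSDARG00000027744) turned to 0.013 with spike-in scaling; it was not called. Genes silent in DMut numbered 174 at a minimum of 1 count, of which 154 were tested. Genes silent in siblings numbered 363 at 1 count, of which 293 were tested, and 97 at 100 counts, all tested. Without the 10 most abundant genes of a tube, the microglia list averaged 1.06% in DMut and 2.68% in siblings, the macrophage list 3.45% and 3.01%, the neutrophil list 0.189% in DMut, the radial glia list 0.0625% in DMut and the endothelial list 0.026% in siblings. The causes were not tested. Depth was not varied; a gene without a count is bounded by a floor of 3 counts over its group.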
